A study of Mus musculus with 8 samples.

Results

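The cytostatic arm of the TGF-β response was followed through 10 genes taken by name from the deposited count table, which lists 13937 genes: the INK4 inhibitors Cdkn2a (CDKN2A), Cdkn2b (CDKN2B) and Cdkn2c (CDKN2C), the CIP/KIP inhibitors Cdkn1a (CDKN1A), Cdkn1b (CDKN1B) and Cdkn1c (CDKN1C), the D cyclins Ccnd1 (CCND1), Ccnd2 (CCND2) and Ccnd3 (CCND3), and Myc (MYC). All 10 passed the filter on low counts, with 13509 genes tested in all. The libraries were bulk RNA sequencing libraries from primary astrocytes, grown from the brains of C57BL/6 pups at postnatal day 1 and of 2 genotypes, wild type (WT) and knockout for RGC-32, the protein encoded by Rgcc (RGC-32 KO, here KO). Every culture was serum-starved overnight, and cells then went 24 h with TGF-β at 10 ng/ml (treated) or without it (control, or untreated). Each combination of genotype and treatment, 4 groups in all, held 2 biological replicates, which makes 8 libraries. The cells were the adherent layer left after shaking off oligodendrocyte precursors and neurons, so they were not sorted. How many pups gave each replicate is not stated in the labels, and p-values measure the spread between these libraries.

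Progression through G1 depends on D cyclins, which bind CDK4 and CDK6 and start the phosphorylation of the retinoblastoma protein, releasing E2F factors. INK4 proteins bind CDK4 and CDK6 and keep D cyclins from activating them, and CIP/KIP proteins bind cyclin and kinase together and restrain CDK2 most strongly. In epithelial cells TGF-β is known for arresting growth by raising Cdkn2b and Cdkn1a and lowering Myc, a growth-promoting transcription factor, whereas in astrocytes it is better known for matrix production and reactivity.

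Total counts ran from 14920561 to 18956038 per library. Rgcc, the targeted gene, had 80 and 94 counts untreated and 215 and 362 treated in WT, and 61 and 28 untreated and 64 and 26 treated in KO. It was lower in every KO library than in every WT library, but not at 0. Among genes known to respond directly to TGF-β, Pmepa1, a feedback inhibitor of SMAD signalling, rose by 2.63 on the log2 scale in WT (adjusted p = 0.000328) and by 2.65 in KO (adjusted p = 0.000395), and Ltbp2, a matrix protein of the family that binds latent TGF-β, rose by 2.15 and 2.09. All 10 astrocyte markers were measured, among them Gfap, Aqp4 and Slc1a3, and their summed level was 4620 to 4850 CPM (counts scaled to a common library size after TMM) in WT control and 3580 to 3700 in WT TGF-β, and 5340 to 6000 and 4380 to 4720 in KO. Markers of other cell types were also read. The 12 microglial markers summed to 1320 to 1610 CPM in WT control and 1180 to 1550 in WT TGF-β, which overlapped. In KO they summed to 1410 to 1570 and 1200 to 1360, which did not. Their median log2 fold changes were −0.27 in WT and −0.29 in KO. Of the 12, Tmem119 rose past the threshold in both, by 0.99 and 0.68, and 0 fell at an adjusted p under 0.05. Over all genes tested, 14.3% in WT and 11.8% in KO fell at that adjusted p. The 11 measured markers of meningeal fibroblasts and mural cells, which include collagen genes that TGF-β itself induces, did not move as 1 set. They summed to 5020 to 5920 CPM in WT control against 9290 to 10800 in WT TGF-β, and 4060 to 4230 against 7120 to 7460 in KO, and Col1a1, Col1a2, Cspg4 and Pdgfrb rose past the threshold in both genotypes, while Ogn (−0.85) and Dcn (−0.62) fell past it in WT and fell by less in KO (−0.50 and −0.36). The summed ependymal markers went from 379 to 439 CPM to 239 to 270 in WT, and from 401 to 451 to 289 to 301 in KO. The 9 measured oligodendrocyte lineage markers, which share Cspg4 with the preceding list, summed to 380 to 392 CPM in WT control and 544 to 625 in WT TGF-β, and to 401 and 466 to 587 in KO, where Cspg4 rose and Pdgfra and Cnp fell past the threshold in both genotypes. The 7 measured endothelial markers summed to 104 to 129 and 76.1 to 79.6 CPM in WT and to 106 to 132 and 71.9 to 84.9 in KO, and of these Cdh5 fell and Flt1 rose past the threshold in both. Of 10 neuron markers 5 were in the deposited count table, and Rbfox3, Snap25, Nefl, Dcx and Slc17a7 were not in it. The 5 measured neuron markers summed to 305 to 316 CPM in WT control and 378 to 397 in WT TGF-β. In KO they summed to 280 to 338 and 355 to 385, and Tubb3 rose past the threshold in both genotypes. The part of these cell types in the results below was not tested, and in bulk samples fewer cells of a type and less RNA per cell cannot be told apart.

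TGF-β moved the 10 genes in both directions. Cdkn2a rose and Cdkn1c and Ccnd1 fell past the threshold (a log2 fold change of at least 0.6 in size with an adjusted p under 0.05) in WT and KO astrocytes alike, while Cdkn2b, Cdkn2c and Myc did not reach an adjusted p of 0.05 in either genotype in this fit. In WT, 1 of 10 rose and 2 fell past the threshold, where 7.72% and 5.65% of all genes tested did. In KO the counts were also 1 and 2 of 10, against 6.61% and 4.93%. Without the limit on fold size, 2 of 10 rose and 5 fell in WT, against 18.6% and 14.3% of all genes, and 2 rose and 4 fell in KO, against 16.6% and 11.8%. The TGF-β libraries lay wholly above or wholly below the controls for 8 of 10 genes in WT and 9 of 10 in KO, where 69.1% and 67.3% of all genes did so. The median log2 fold change of the 10 was −0.22 in WT and −0.18 in KO, against 0.00 over all genes in both. Hereafter, rose and fell are used of an adjusted p under 0.05.

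**Figure D1:**
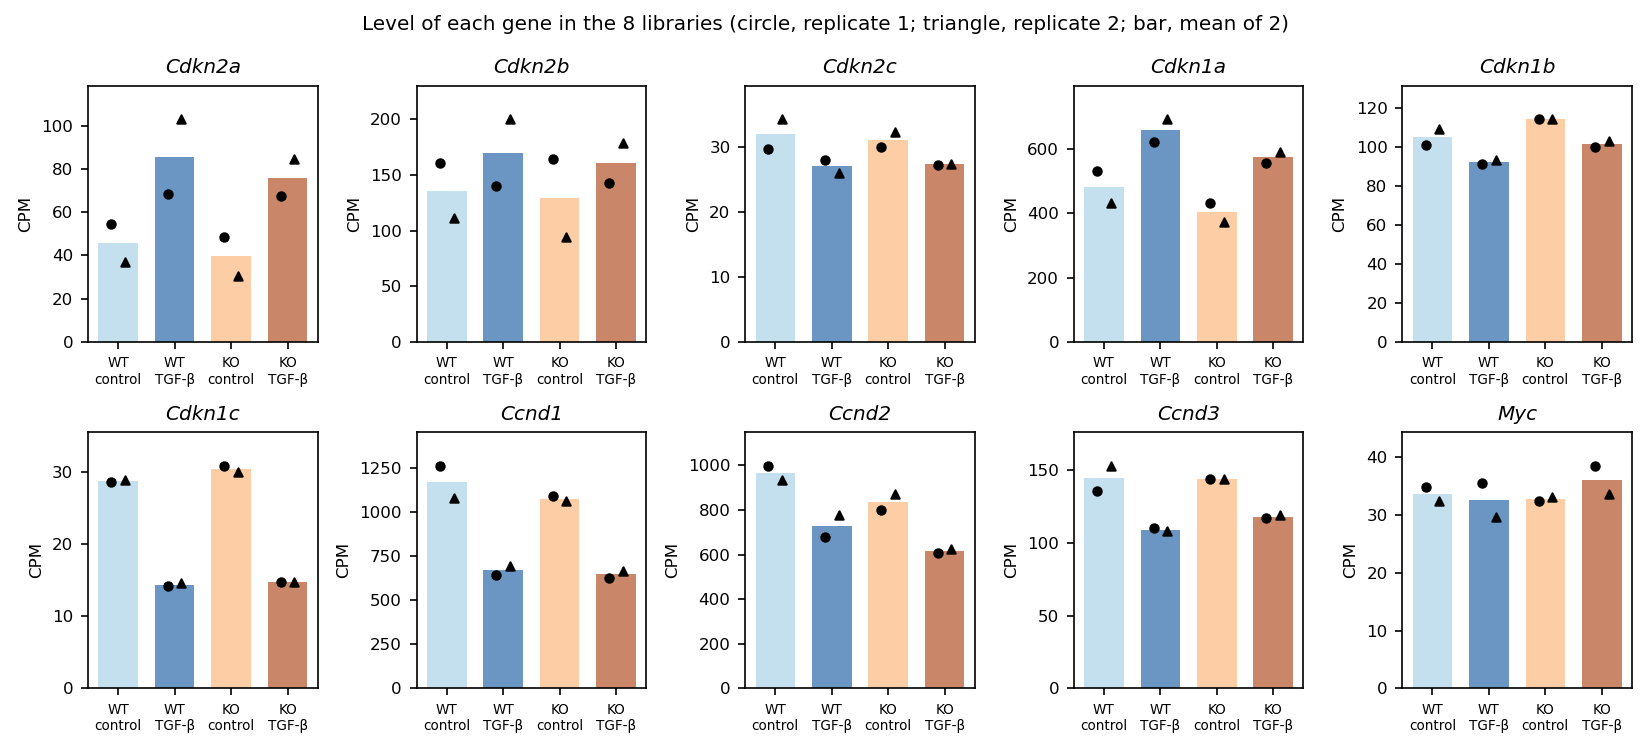
Level of each of the 10 genes in CPM (vertical axis, starting at 0) in the 4 groups; bars are means of 2 libraries, circles replicate 1 and triangles replicate 2. The Cdkn1c replicates nearly coincide at 28.6 and 29.0 CPM in WT control and 14.2 and 14.6 in WT TGF-β, whereas the Cdkn2a replicates stand apart, at 54.7 and 37.1 and at 68.5 and 103.

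Among the INK4 genes, Cdkn2a rose in both genotypes and its neighbour Cdkn2b did not pass the test in the fit without a block. Cdkn2a (chr4:89274471-89294653, minus strand, GRCm38) encodes 2 proteins from separate first exons, p16INK4a, which inhibits CDK4 and CDK6, and p19ARF, which stabilises p53 by holding back Mdm2. The deposited table gives 1 count for the gene, so the 2 products were not separated. Cdkn2b (chr4:89306299-89311039, minus strand) encodes p15INK4b and lies 11645 bases from Cdkn2a. The 250 bases before the RefSeq start sites of the pair (GRCm38.p6) are shown because Cdkn2a passed the test and Cdkn2b did not in that fit, a difference that was itself not tested, read 5′ to 3′ on the strand of the gene, with the SMAD box CAGAC (or its complement GTCTG) and the GC box GGGCGG (or CCGCCC), the element Sp1 binds, in capitals.
Cdkn2a, p19ARF start, chr4:89294620-89294869, minus strand: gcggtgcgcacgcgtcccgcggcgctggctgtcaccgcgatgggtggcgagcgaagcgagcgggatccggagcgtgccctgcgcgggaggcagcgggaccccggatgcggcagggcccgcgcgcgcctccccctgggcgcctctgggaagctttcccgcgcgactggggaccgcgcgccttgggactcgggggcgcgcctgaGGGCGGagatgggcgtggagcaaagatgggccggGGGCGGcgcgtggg
Cdkn2a, p16INK4a start, chr4:89282193-89282442, minus strand: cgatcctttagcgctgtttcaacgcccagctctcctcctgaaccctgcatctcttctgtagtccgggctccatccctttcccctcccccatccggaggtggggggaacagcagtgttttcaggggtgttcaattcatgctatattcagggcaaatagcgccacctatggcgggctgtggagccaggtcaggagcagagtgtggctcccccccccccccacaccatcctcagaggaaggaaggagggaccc
Cdkn2b, chr4:89311033-89311282, minus strand: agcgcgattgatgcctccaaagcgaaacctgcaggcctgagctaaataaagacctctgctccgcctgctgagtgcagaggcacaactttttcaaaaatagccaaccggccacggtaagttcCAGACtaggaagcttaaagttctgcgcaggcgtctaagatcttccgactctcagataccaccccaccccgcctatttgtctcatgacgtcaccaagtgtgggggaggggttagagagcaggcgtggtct
The Cdkn2b stretch held 1 SMAD box, 129 bases before the start, and no GC box. The p19ARF stretch held 2 GC boxes, 48 and 14 bases before the start, and no SMAD box, and the p16INK4a stretch held neither. Over 32851 promoters of the same length in RefSeq, 42.2% held a SMAD box and 32.7% a GC box, so a match on these short letters is common and describes the sequence only. RefSeq promoters were matched for 6 of the 10 genes.

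Cdkn2a was read at 54.7 and 37.1 CPM in untreated WT libraries and at 68.5 and 103 in treated ones, and at 48.5 and 30.6 against 67.3 and 84.7 in KO. Both TGF-β libraries lay above both controls in each genotype, although replicates of a group differed widely. The log2 fold change in edgeR was 0.90 with SE 0.28 in WT and 0.95 with SE 0.28 in KO, at adjusted p-values of 0.041 and 0.0402. Both calls were close to the threshold: DESeq2 gave adjusted p-values of 0.0845 and 0.077, and leaving out replicate 2 of WT control or of WT TGF-β gave log2 fold changes of 0.62 and 0.56 with adjusted p-values of 0.2 and 0.239. In KO, leaving out replicate 2 of the control gave 0.65 (adjusted p = 0.198), and leaving out replicate 1 or replicate 2 of TGF-β gave 1.10 and 0.75 (adjusted p = 0.0702 and 0.191). The WT call was also lost, with its log2 fold change still 0.90, when either KO TGF-β library was left out (adjusted p = 0.0516 and 0.0517). With the replicate number as a block, the adjusted p was 0.0564 in WT and 0.0559 in KO. Both calls held in limma-voom (adjusted p = 0.0394 and 0.0371). They also held with the numbers of the TGF-β libraries exchanged and used as a block, a fit chosen after seeing the data.

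Cdkn2b stood at 161 and 111 CPM untreated and 140 and 200 treated in WT, and at 164 and 94.4 untreated and 143 and 179 treated in KO. The groups overlapped in both genotypes. Its log2 fold change was 0.32 in each, with adjusted p-values of 0.419 and 0.436 and a 95% interval of −0.34 to 0.99 in both, which includes the log2 fold change of Cdkn2a. Leaving out single libraries moved it between 0.03 and 0.61 in WT and between −0.02 (without replicate 2 of the controls) and 0.76 in KO. With the numbers of the TGF-β libraries exchanged and used as a block, a fit chosen after seeing the data, the adjusted p of Cdkn2b was 0.0266 in WT and 0.0206 in KO, so its call depends on how the libraries are paired, which the labels do not settle. The rank of the replicates was the same for both neighbours. Replicate 1 was the higher control and replicate 2 the higher TGF-β library for Cdkn2a and Cdkn2b in both genotypes.

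The ratio of the neighbours within a library was steadier than either gene. Cdkn2b to Cdkn2a, as a ratio of CPM, was 2.94 and 3 untreated and 2.05 and 1.95 treated in WT, and 3.37 and 3.09 untreated and 2.13 and 2.12 treated in KO. All 4 control libraries lay above all 4 TGF-β libraries, and the SD of the log2 ratio within a group was at most 0.09. This ratio was chosen after its values were seen and carries no test.

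Cdkn2c (p18INK4c, chr4:109660876-109667189) was read at 29.7 and 34.2 CPM in WT control against 28 and 26 in WT TGF-β, and at 30 and 32.2 against 27.2 and 27.4 in KO. The TGF-β libraries lay below the controls in both genotypes, by little. Log2 fold changes were −0.25 (adjusted p = 0.065) and −0.19 (adjusted p = 0.146), and neither passed. On FPKM with a pseudocount of 1 they were −0.33 (limma adjusted p = 0.00457) and −0.34 (adjusted p = 0.00391).

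The CIP/KIP genes each behaved differently: Cdkn1a rose, Cdkn1b was slightly lower, and Cdkn1c was lower by about 1 on the log2 scale. Cdkn1a (p21, chr17:29090976-29100727, plus strand), a p53 target that inhibits CDK2, was at 531 and 431 CPM untreated and 624 and 693 treated in WT, and at 432 and 374 untreated and 558 and 591 treated in KO. The groups did not overlap in either genotype. Its log2 fold change was 0.45 in WT (SE 0.12, adjusted p = 0.0212) and 0.51 in KO (SE 0.12, adjusted p = 0.015), short of the fold limit in both. Without replicate 1 of the controls it reached 0.61 in WT and 0.60 in KO and then passed. The stretch before the first of its 2 RefSeq start sites in the table is shown beside that of Cdkn2b, since both genes are textbook targets of SMAD factors in epithelial cells and of the pair Cdkn1a passed the test here.
Cdkn1a, chr17:29090729-29090978, plus strand: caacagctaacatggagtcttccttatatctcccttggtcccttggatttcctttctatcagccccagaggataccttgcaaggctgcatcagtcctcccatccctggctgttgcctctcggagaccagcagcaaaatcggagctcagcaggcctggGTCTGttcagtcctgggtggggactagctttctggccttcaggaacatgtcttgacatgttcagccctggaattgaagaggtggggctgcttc
It held 1 SMAD box, in capitals, 93 bases before the start, and no GC box. The stretch before the other start site (chr17:29093519-29093768), not printed, held 1 SMAD box, 135 bases before the start, and 2 GC boxes, 104 and 46 bases before it. Which start site these cells used was not tested, so the printed stretch need not be the one SMAD factors act on.

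Cdkn1b (p27, chr6:134920401-134925513), the inhibitor that accumulates in resting cells mainly by slower protein turnover, was at 101 and 109 CPM in WT control against 91.3 and 93.1 in WT TGF-β, and at 114 and 114 against 100 and 103 in KO. The groups did not overlap, but the change was small. Cdkn1b fell in WT (log2 fold change −0.19, SE 0.06, adjusted p = 0.0388), and in KO the value was −0.17 (adjusted p = 0.0584).

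Cdkn1c (p57, chr7:143458339-143461050, minus strand), an imprinted inhibitor tied to differentiation in the developing brain, was read at 28.6 and 29.0 CPM untreated and 14.2 and 14.6 treated in WT, and at 30.9 and 30 untreated and 14.7 and 14.8 treated in KO. All 4 TGF-β libraries lay far below all 4 controls. The log2 fold change was −1.0 in WT (95% interval −1.17 to −0.83, adjusted p = 0.000158) and −1.04 in KO (−1.21 to −0.88, adjusted p = 0.000178), which left 49.9% and 48.5% of the control level.

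**Figure D2:**
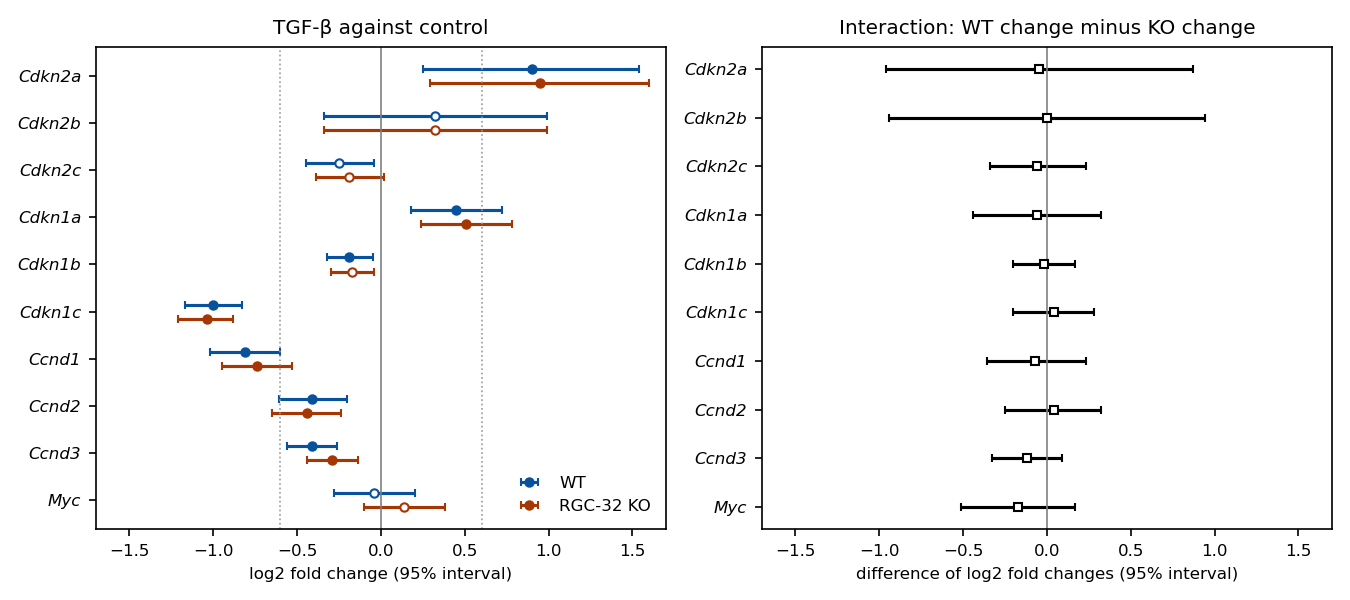
Log2 fold change of each gene for TGF-β against control in WT and KO (left) and the difference between the genotypes' changes (right), as points with 95% intervals from edgeR; filled points have an adjusted p under 0.05 and dotted lines mark 0.6 in size. The WT and KO intervals of each gene overlap, and every interval on the right includes 0, from the widest for Cdkn2b (−0.94 to 0.94) to that for Cdkn1b (−0.20 to 0.17).

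All 3 D cyclins fell in both genotypes, Ccnd1 the most. Ccnd1 (cyclin D1, chr7:144929931-144939925, minus strand) was at 1260 and 1080 CPM untreated and 644 and 691 treated in WT, and at 1090 and 1060 untreated and 625 and 667 treated in KO. Every TGF-β library was below every control by a wide margin. Its log2 fold change was −0.81 in WT (SE 0.09, adjusted p = 0.000702) and −0.74 in KO (SE 0.09, adjusted p = 0.00123), leaving 57.1% and 59.9% of the control level.

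Ccnd2 (cyclin D2, chr6:127125162-127152193), the D cyclin of neural progenitors, was at 998 and 934 CPM untreated and 678 and 779 treated in WT, and at 800 and 870 untreated and 605 and 624 treated in KO. Each TGF-β pair lay below its own controls, while the WT TGF-β libraries came near the KO controls. Log2 fold changes were −0.41 (adjusted p = 0.0106) and −0.44 (adjusted p = 0.00897). Ccnd3 (cyclin D3, chr17:47505051-47599691) was at 136 and 153 CPM against 110 and 108 in WT, and at 144 and 144 against 117 and 119 in KO. It too did not overlap between treatment groups. It fell by 0.41 on the log2 scale in WT (adjusted p = 0.00305) and by 0.29 in KO (adjusted p = 0.0145).

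The 3′ end of Ccnd1 lies on a gene of the opposite strand. Oraov1 (now Lto1, chr7:144915100-144931701, plus strand), a factor for iron-sulphur proteins, overlaps Ccnd1 over 1771 bases (chr7:144929931-144931701), and the libraries did not keep strand, so reads in that stretch cannot be told apart. In counts Oraov1 followed Ccnd1, with 0.257 to 0.290 Oraov1 counts for each Ccnd1 count in all 8 libraries, and its log2 fold change was −0.85 in WT (SE 0.12, adjusted p = 0.00181) and −0.76 in KO (SE 0.12, adjusted p = 0.00368). In the authors' FPKM values (fragments per kilobase of transcript, scaled to library size), which were estimated by Cufflinks, Oraov1 went from a mean of 9.52 to 8.31 in WT and from 9.05 to 7.56 in KO, log2 ratios of −0.19 and −0.26. Ccnd1 itself was lower on both scales, with mean FPKM of 282 and 147 in WT and 264 and 146 in KO. Bysl overlaps the end of Ccnd3 by 361 bases on the opposite strand, and its log2 fold changes were 0.01 and 0.05.

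**Figure D3:**
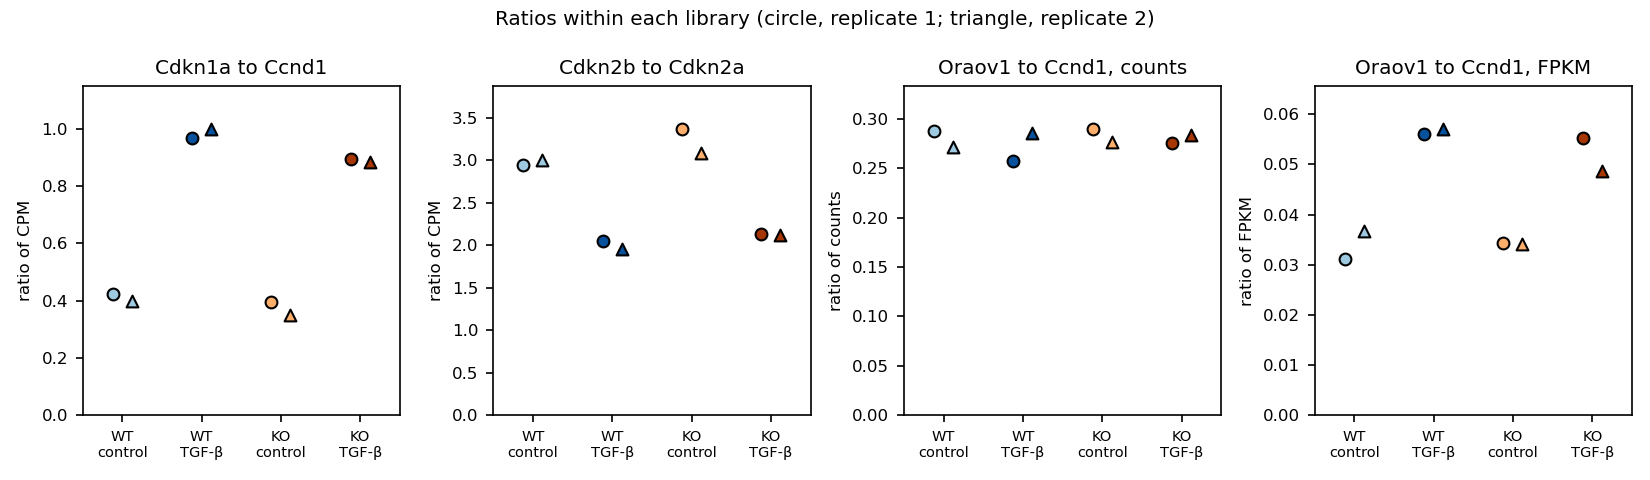
Ratios within each of the 8 libraries (vertical axes, starting at 0): Cdkn1a to Ccnd1 and Cdkn2b to Cdkn2a in CPM, and Oraov1 to Ccnd1 in counts and in FPKM. The first ratio is at most 0.422 in controls and at least 0.886 after TGF-β, and the ratio of Oraov1 to Ccnd1 stays between 0.257 and 0.290 in counts but goes from at most 0.0367 to at least 0.0488 in FPKM.

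Myc (chr15:61985391-61990374), which drives growth and restrains Cdkn2b and Cdkn1a in proliferating cells, did not pass the test in either genotype. It was at 34.8 and 32.4 CPM untreated and 35.6 and 29.7 treated in WT, and at 32.5 and 33.1 untreated and 38.5 and 33.7 treated in KO. The WT groups overlapped, and in KO both TGF-β libraries lay just above the controls. The log2 fold change was −0.04 in WT (95% interval −0.28 to 0.20, adjusted p = 0.809) and 0.14 in KO (−0.10 to 0.38, adjusted p = 0.358). The sign in WT turned when replicate 1 of the control (0.01) or replicate 2 of TGF-β (0.07) was left out.

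Per transcript length, Ccnd1 and Cdkn1a were the most abundant of the 10 and Cdkn1c and Myc the least. By mean FPKM the controls of both genotypes had 1 order, from Ccnd1, Cdkn1a, Ccnd2, Cdkn2b and Ccnd3 to Cdkn2a, Cdkn1b, Cdkn2c, Cdkn1c and Myc. After TGF-β the order in both genotypes was Cdkn1a, Ccnd1, Cdkn2b, Ccnd2, Cdkn2a, Ccnd3, Cdkn1b, Cdkn2c, Myc and Cdkn1c. In WT control, Ccnd1 was at 282 ± 35.9 FPKM (SD, n = 2) and Cdkn1a at 242 ± 34.6, with Ccnd1 the higher within each library. Cdkn1c at 13.6 ± 0.0989 and Myc at 12.7 ± 0.503 were close. In WT TGF-β, Cdkn1a was at 296 ± 13.1 and Ccnd1 at 147 ± 11.1, well separated. Cdkn2b was at 113 ± 30.9, Ccnd2 at 104 ± 6.83 and Cdkn2a at 88.9 ± 23.2 in the same group. Cdkn2a was the lowest of these within each library, while Cdkn2b and Ccnd2 changed order between the libraries. Myc stood at 11.4 ± 0.341 and Cdkn1c at 5.99 ± 0.371.

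**Figure D4:**
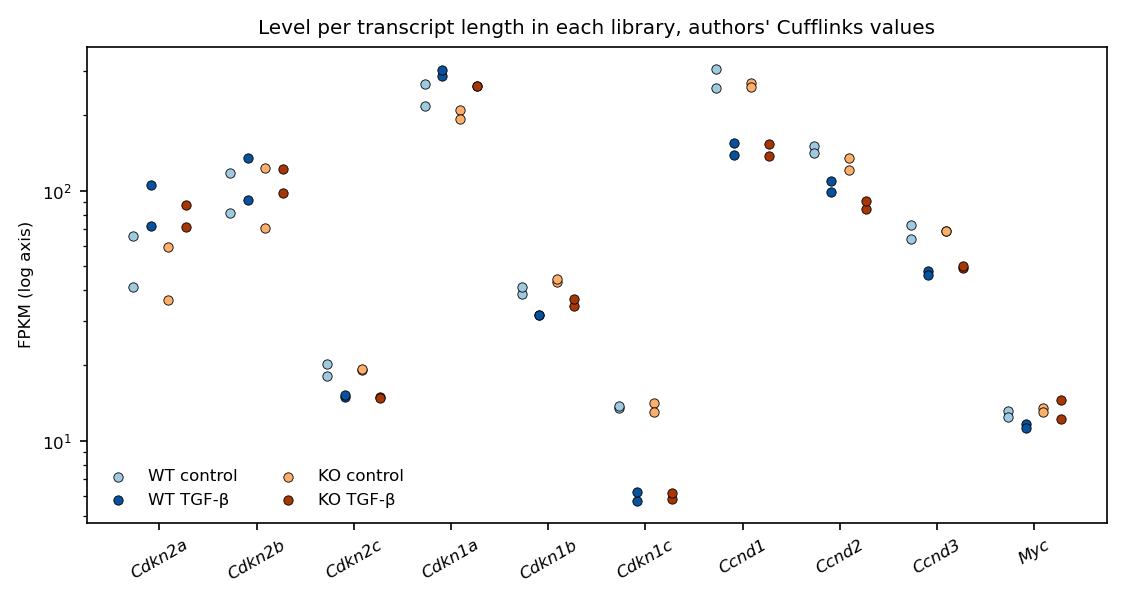
FPKM of each gene (vertical axis, log scale) in the 8 libraries, by group. Cdkn1c goes from 13.0 to 14.2 FPKM in the controls to 5.73 to 6.25 after TGF-β, below Myc, and Cdkn1a comes to lie above Ccnd1.

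The makeup of each family shifted within libraries. The 3 D cyclins summed to 522 and 471 FPKM untreated and 286 and 309 treated in WT, and to 460 and 463 untreated and 272 and 294 treated in KO. Ccnd1 made up 54.6% to 58.9% of that sum in the 4 controls and 48.7% to 52.3% in the 4 TGF-β libraries. Cdkn1a made up 77.1% to 83.6% of the CIP/KIP sum in controls and 85.9% to 88.9% after TGF-β. The INK4 sum, led by Cdkn2b, was 202 and 143 FPKM in WT control against 179 and 256 in WT TGF-β, and 202 and 127 against 184 and 224 in KO, so that it overlapped between treatments. Cdkn1a to Ccnd1, as a ratio of CPM and chosen after its values were seen, was 0.422 and 0.399 untreated and 0.968 and 1.0 treated in WT, and 0.395 and 0.351 untreated and 0.894 and 0.886 treated in KO.

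The loss of RGC-32 was compared at each treatment and through the interaction, the difference between the WT and the KO response to TGF-β. In none of these comparisons did any of the 10 genes pass an adjusted p of 0.05 in edgeR. Of all 13509 genes tested, 5 did so among controls, 7 after TGF-β and 0 in the interaction. The 0 of 10 is therefore not read as a result about these genes. Among controls, 1 of 10 had an unadjusted p under 0.05, against 6.84% of all genes. That gene was Ccnd2, higher in WT by 0.21 on the log2 scale (95% interval 0.01 to 0.41, adjusted p = 0.722). After TGF-β, 2 of 10 did, against 11.7% of all genes: Ccnd2, again higher in WT, by 0.24 (0.04 to 0.45, adjusted p = 0.35), and Cdkn1b, with a value of −0.14 for WT minus KO (−0.27 to −0.01, adjusted p = 0.412). For Cdkn1a the values were 0.26 in controls (−0.01 to 0.53, adjusted p = 0.725) and 0.20 after TGF-β (−0.07 to 0.47, adjusted p = 0.563). These 2 comparisons share no library.

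For the interaction, 0 of 10 genes had an unadjusted p under 0.05, against 2.82% of all genes, and the smallest was 0.229, for Ccnd3. DESeq2 and limma-voom also put 0 of 10 past the threshold, and DESeq2 put 0 of all genes past it. The 10 differences in log2 fold change, WT minus KO, ran from −0.17 for Myc (95% interval −0.51 to 0.17) to 0.04 for Cdkn1c (−0.20 to 0.28). For Ccnd1 the difference was −0.07 (−0.36 to 0.23) and for Ccnd3 −0.12 (−0.33 to 0.09). For Cdkn2a it was −0.05, but with an interval of −0.96 to 0.87 a difference of the size of the response itself was not detectable. The 2 responses each have controls of their own.

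Lists of genes around this switch were read against the share of all genes tested, of which 7.72% rose and 5.65% fell past the threshold in WT and 6.61% and 4.93% in KO. These lists, like the 10 genes, were chosen with earlier results of the data known, and they are described by counts and medians only. Among the 19 measured CDK4/6, RB and E2F partners, 0 passed the threshold in either genotype, with medians of 0.04 in WT and 0.07 in KO. Without the fold limit 2 rose and 3 fell in WT, where 18.6% and 14.3% of all genes did. For KO the counts were 2 and 2, against 16.6% and 11.8%. Cdc25a, the phosphatase that activates CDK2, rose by 0.44 in WT and 0.46 in KO on the log2 scale, E2f1 fell by 0.25 and 0.26, and Cdk4 (0.09 and 0.12) and Rb1 (0.10 and 0.15) did not pass.

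Of 20 E2F target genes for DNA replication, 0 passed the threshold in WT and 1 rose in KO, the thymidylate synthase gene Tyms, at 0.54 in WT and 0.71 in KO. The medians were −0.18 and −0.26, against −0.005 and 0.003 over all genes, and 16 of the 20 in WT and 17 in KO were below 0. Without the fold limit 3 rose and 4 fell in WT, where 18.6% and 14.3% of all genes did. In KO 2 rose and 2 fell, against 16.6% and 11.8%. Of 16 mitosis genes, 0 passed the threshold in either genotype, and the medians were −0.12 and −0.23. Mki67, the source of the Ki-67 proliferation antigen, was at 0.02 in WT (adjusted p = 0.901) and −0.22 in KO (adjusted p = 0.147), and Ccnb1 fell in WT by 0.37 (adjusted p = 0.0219).

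Of 12 genes of the MYC network, 0 passed the threshold in WT and 1 rose in KO. That gene was Mycn, the paralogue of Myc, at 0.69 in WT (adjusted p = 0.0721) and 0.96 in KO (adjusted p = 0.0349), a low gene at a mean of 1.99 CPM in WT control. Of 20 MYC target genes, 3 rose past the threshold in WT and 2 in KO, and without the fold limit 8 and 10 rose and 0 fell, where 18.6% and 16.6% of all genes rose, with medians of 0.15 and 0.21. Odc1 and Srm, which make putrescine and spermidine, rose by 0.88 and 0.90 in WT and by 0.90 and 0.84 in KO. Cad, for pyrimidine synthesis, rose by 0.76 and 0.49. Ldha, the lactate dehydrogenase subunit, was at −0.14 and −0.03 and did not pass.

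Of 15 p53 target genes, 1 rose past the threshold in WT, the kinase gene Plk2, at 0.70. In KO, Plk2 (0.85) and Mdm2 (0.61) rose past it and Bbc3, the pro-apoptotic PUMA, fell past it at −0.67. In WT, Mdm2 at 0.55 and Bbc3 at −0.57 were changed but short of the fold limit. Of 11 measured genes for turnover of p27 and D cyclins, Rassf1, a tumour suppressor that limits cyclin D1, rose past the threshold in both genotypes, by 0.67 and 0.61, a call lost under 5 of 20 alternatives in WT and 13 of 20 in KO. Skp2, the ubiquitin ligase subunit that targets p27, was at 0.02 and −0.01 and did not pass. Of 12 measured polycomb and H3K27 demethylase genes that control the Cdkn2a locus, 1 fell past the threshold in both, the polycomb subunit gene Cbx7, by 0.78 and 0.80. Kdm6b, an H3K27 demethylase, rose by 0.59 and 0.40. Of 9 SMAD, FOXO and partner factors, 0 passed the threshold, and Foxo1 rose by 0.39 and 0.44.

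**Figure D5:**
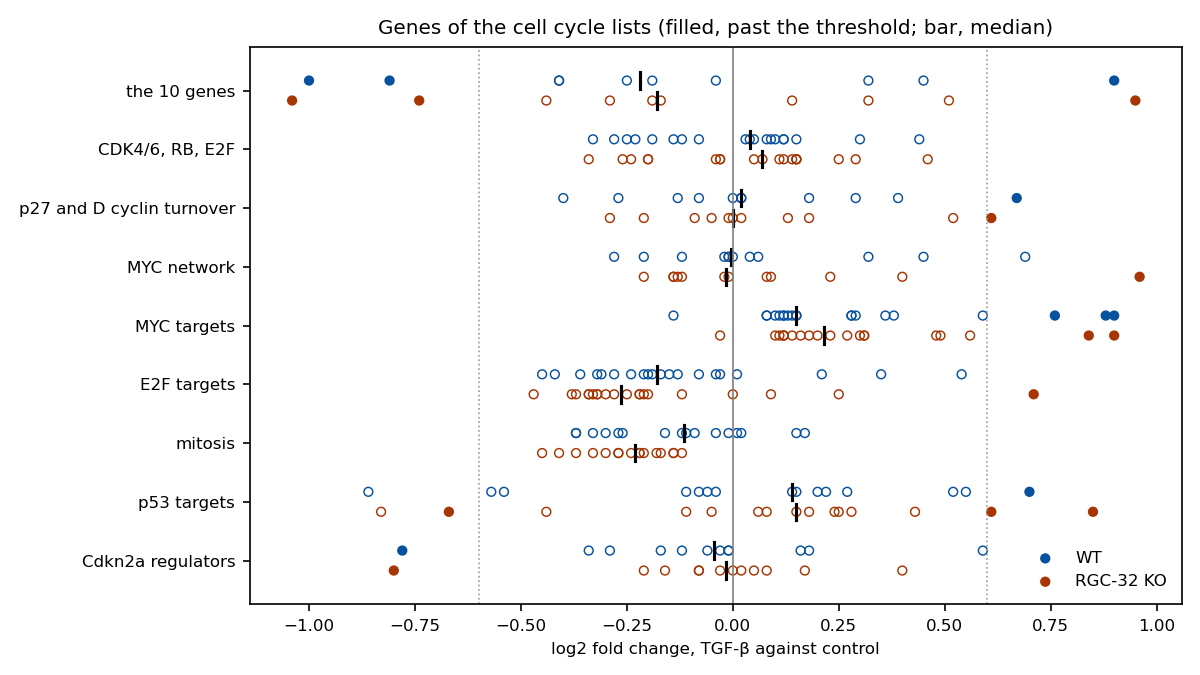
Log2 fold change for TGF-β against control (horizontal axis) of the 10 genes and of 8 lists of cell cycle genes, in WT and KO; each point is a gene, filled where past the threshold, and black bars are medians. The E2F target medians lie at −0.18 and −0.26 and the MYC target medians at 0.15 and 0.21.

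The genes next to the 10 on the chromosome were also read. Beside the Cdkn2a and Cdkn2b pair on chromosome 4, Mtap, a methionine salvage enzyme, rose by 0.52 in WT (adjusted p = 0.0212) and by 0.64 in KO (adjusted p = 0.0115). On the other side, Dmrta1 was barely read, at 0.387 and 0 CPM untreated and 0.774 and 1.98 treated in WT, and at 0.319 and 0.118 untreated and 1.47 and 1.59 treated in KO. It passed the test in both genotypes (adjusted p = 0.0403 and 0.0398), at no more than 1.98 CPM in any library. Its call was lost under 9 of 17 alternatives in WT and 7 of 17 in KO. Beside Cdkn1c, Slc22a18, which is imprinted with it, fell by 0.67 in WT (adjusted p = 0.0134) and was at −0.40 in KO (adjusted p = 0.0896), while Nap1l4 in the same domain was at 0.04 in both. Beside Cdkn1b, Gpr19 fell by 0.67 and 0.70, and Ddx47 was at 0.03 and −0.01. Srsf3 beside Cdkn1a (0.09 and 0.19), Pvt1 beside Myc (−0.24 and −0.16) and Faf1 beside Cdkn2c (0.17 and 0.06) did not pass.

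For the genes past the threshold, the 3 genes most alike over the 8 libraries were sought by the root mean square distance between log2 CPM profiles, each centred on its own mean. For Cdkn1c they were Mettl7a1 (distance 0.0399, log2 fold changes −1.04 in WT and −1.05 in KO), Aldh3b1 (0.0589) and Selenop (0.0706), the last a secreted selenium carrier. For Ccnd1 they were its overlapping neighbour Oraov1 (0.0534), the glutathione transferase gene Gstm1 (0.0562) and Id1 (0.0793), an inhibitor of differentiation factors. For Cdkn2a they were Foxp4 (0.1), Gsto1 (0.106) and Mxra7 (0.110), at larger distances. The 8 libraries split by treatment, so these distances describe genes whose counts changed alike with TGF-β. Oraov1 counts may hold reads from the stretch it shares with Ccnd1, and its FPKM log2 ratios were only −0.19 in WT and −0.26 in KO. The part of shared reads in its likeness was not tested.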

How the data were processed

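RNA from the 8 astrocyte libraries was sequenced without strand, and the authors aligned reads with STAR in the VIPER pipeline. Submitters' processing notes name STAR, Cufflinks, DESeq and the build mm10 (GRCm38); the program and annotation behind the gene counts are not given in the sources used here. The authors deposited raw counts for 13937 gene symbols and FPKM values for 18644 genes. Tables of the authors' own fold changes, p-values and annotation were also deposited and were not used.

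The tests used edgeR 4.0.16 in R 4.3.3. After filterByExpr (13509 genes kept) and TMM scaling, a single quasi-likelihood fit over all 8 libraries gave each group a mean, without a replicate block. P-values were adjusted by Benjamini-Hochberg over all genes tested. The limits (log2 fold change of 0.6, adjusted p of 0.05) are the study's, but the test and adjustment are not. The study applied its limits to DESeq2 results and names a Bonferroni correction. Intervals are 95% and come from the fit. CPM values use the TMM-scaled library size, and replicates differed by more than counting noise (chi-square per degree of freedom 6.26 to 10.4 over all genes). Alternatives used DESeq2 1.42.0, limma 3.58.1 (limma-voom, and limma on log2 FPKM with pseudocounts of 1 and 0.1), other scalings and filters, and each library left out in turn. The code was also run on simulated counts with the same dispersion for all genes and independent replicates. That run cannot give the error rate in these data.

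Library groups and replicate numbers came from the labels. Positions are from GENCODE M21 (GRCm38) and promoters from RefSeq (GRCm38.p6); 2 genes were matched by older symbols. The 10 genes, the lists and the rules were chosen with earlier results of these data known. Text names all 10 genes, at most 4 genes a list past the threshold, all tested locus neighbours and the 3 likest genes of each gene past the threshold in WT; Cdk4, Rb1, E2f1, Cdc25a, Mki67, Ccnb1, Ldha, Skp2, Kdm6b and Foxo1 were added after their values were seen. Cdkn2d, Usp28 and Ezh2 were not analysed here, and 1 gene of the TGF-β response list is not reported here.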

Additional observations from a re-analysis of the deposited data

How the results depend on the processing

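Over the alternatives, 615 values were compared: the TGF-β values of the 10 genes, and a part only of their genotype and interaction values. Of these, 583 kept their direction and their side of the threshold, 20 lost the call, 2 gained it and 10 changed sign. Sign changes over all genotype and interaction values, of which most are not among the 615, are given below. Cdkn1c passed under all 20 alternatives in each genotype, its log2 fold change lying at −1.17 to −0.97 in WT and −1.17 to −1.04 in RGC-32 KO, and Ccnd1 under all but Bonferroni (adjusted p = 0.3 and 0.559). Cdkn2a lost its call under 10 of 20 alternatives in WT and 8 of 20 in RGC-32 KO, with log2 fold changes of 0.56 to 1.20 and 0.65 to 1.29. The cause was not tested. Besides those given above, they include FPKM (adjusted p of 0.0934 to 0.0995) and, in WT, a fit to 4 libraries (0.0551).

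Of the 10 genes, 3 passed the threshold in each genotype. Bonferroni adjustment left 1 and 1, and dropping the fold limit gave 7 and 6, by construction, where 4450 and 3835 of all genes passed without that limit. The counts over all genes under Bonferroni and with libraries left out are not given here. The counts of the 10 in those fits are therefore not read as a result about them. Leaving out 1 library gave 2 to 4 in each. The genotype and interaction counts stayed at 0 under every alternative run, and over all 10 genes 56 of 590 such values changed sign, the lowest adjusted p being 0.197.

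Sign changes of values given in the report were all of values that did not pass. With single libraries left out, Myc in WT ran from −0.17 to 0.07, Cdkn2b in RGC-32 KO from −0.02 to 0.76, and the interaction from −0.41 to 0.26 for Cdkn2a and from −0.17 to 0.05 for Ccnd1. In the interaction FPKM gave 0.00 for Cdkn1c with both pseudocounts.

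The labels do not say what a replicate number marks, and same-numbered libraries did not deviate together throughout. Over 13509 genes their deviations correlated at 0.491 between the controls of both genotypes and 0.253 between the TGF-β groups, but at −0.343 and −0.348 between control and TGF-β within WT and RGC-32 KO, and at −0.483 and −0.507 across both genotype and treatment. With the replicate number as a block, 2 of the 10 genes passed in each genotype, Cdkn2a being lost, and the count over all genes was 1616 in WT against 1806 without the block and 1369 against 1559 in RGC-32 KO. With the numbers of the TGF-β libraries exchanged, a block chosen after seeing the data, 3 of the 10 passed in each, among 2105 and 1852 genes. More genes thus passed than the 1806 and 1559 without the block. In that fit 9 and 8 of the 10 had an adjusted p under 0.05. The share of all genes that did so is not given here, so these counts are not read as a result about the 10.

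Counts of list genes past the threshold rest on few genes, and the counts over all genes under each alternative are not given beside them. Over the alternatives other than Bonferroni and no fold limit, MYC targets passing ran from 2 to 4 in WT and 2 to 3 in RGC-32 KO and p53 targets from 0 to 3 and 2 to 4, while Mycn lost its call in RGC-32 KO under 9 of 20.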
